A study of Mus musculus with 30 samples.

Results

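The 7 genes Tek, Tie1, Cdh5, Pecam1, Kdr, Flt1 and Eng encode surface receptors and junction proteins of the vascular endothelium, and they are 7 of the 22477 genes of the deposited expression table. They were taken from the table by symbol. They were selected on the ratios with and without doxycycline (dox), in which Tek and Pecam1 were higher with dox at 48 h while Cdh5 was lower with dox at 96 h, and those 3 differences are therefore given as a description. The cells are secondary iPSCs of the mouse (induced pluripotent stem cells made from somatic cells that already held the inducible factors). In every condition they carry transgenes of the reprogramming factors OSKM (Oct4, Sox2, Klf4 and cMyc) under the control of dox, a GFP reporter of Nanog and a constitutive nuclear RFP. In the time course the cells were moved from 2i/LIF, which holds them in a naive pluripotent state, to N2B27 medium without inhibitors or LIF, and RNA was taken at 0, 24, 36, 48, 60, 72 and 96 h. In the other arm, cells differentiated in this way for 0, 24, 48 or 96 h were re-seeded in serum/LIF for 48 h, in medium that held no drug (–dox) or held dox at 2 µg/ml (+dox), which switches the OSKM transgenes on. These are 15 conditions with 2 replicates each, 30 samples in all, and polyadenylated RNA was sequenced. The table gives 1 value per condition, as FPKM (fragments scaled to transcript length and to library size), in which both replicates are already combined, so no value here carries a spread or a test. A difference is described by its ratio, and a gene is counted as changed where the ratio reached 2-fold and the higher value reached 1 FPKM.

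In blood vessels, Kdr and Flt1 are receptor tyrosine kinases for vascular endothelial growth factors (VEGFs). Kdr carries most of the signal for endothelial growth, and Flt1 binds VEGF tightly and also exists as a secreted form that captures it. Tek (Tie2) is the receptor of the angiopoietins, and Tie1 is its close relative and partner. Cdh5 (VE-cadherin) and Pecam1 (CD31) join endothelial cells to each other, and Eng (endoglin) is a co-receptor for ligands of the TGF-beta and BMP family. Several of the 7 are used outside vessels as well: Pecam1 is a known surface protein of mouse pluripotent cells, and Kdr marks early mesoderm.

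On the mm10 genome, in the Gencode M21 annotation, Tek lies on chromosome 4 from 94739289 to 94874976 on the plus strand, and Tie1 lies on the same chromosome from 118471191 to 118490061 on the minus strand. Kdr (75932827 to 75978458) and Flt1 (147561604 to 147726011) are both on the minus strand of chromosome 5. Cdh5 is on chromosome 8 from 104101625 to 104144511 on the plus strand, Pecam1 on chromosome 11 from 106654217 to 106750628 on the minus strand, and Eng on chromosome 2 from 32646595 to 32682669 on the plus strand. Exons of Eng overlap those of Fpgs, a folate enzyme gene on the opposite strand that was listed at 18.8 to 41.8 FPKM. Whether the reads were counted by strand is not given in the sources used here, so reads of the shared stretch cannot be assigned to either gene with certainty.

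Promoter sequences are shown for Tek, Flt1 and Eng, whose available windows overlapped none of their own exons. No window was available for Cdh5 or Pecam1, and those of Tie1 and Kdr overlapped an exon of the gene itself. Each is the 250 bases before the gene start in RefSeq (GRCm38.p6), written in the direction of the gene. Capitals mark GGAA or its complement TTCC, the core that ETS factors bind, a family with a known role in endothelial gene control.
Tek, chr4:94739039-94739288, plus strand: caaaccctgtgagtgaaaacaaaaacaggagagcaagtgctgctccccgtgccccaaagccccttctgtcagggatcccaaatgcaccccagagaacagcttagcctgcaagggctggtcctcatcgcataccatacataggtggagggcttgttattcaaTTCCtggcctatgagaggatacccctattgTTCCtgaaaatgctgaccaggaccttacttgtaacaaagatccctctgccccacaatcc
Flt1, chr5:147726012-147726261, minus strand: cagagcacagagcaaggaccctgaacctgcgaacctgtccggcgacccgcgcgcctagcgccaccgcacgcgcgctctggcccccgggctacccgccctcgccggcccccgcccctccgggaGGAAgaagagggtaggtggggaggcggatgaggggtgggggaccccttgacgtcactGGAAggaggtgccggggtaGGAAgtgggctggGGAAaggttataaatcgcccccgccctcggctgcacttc
Eng, chr2:32646345-32646594, plus strand: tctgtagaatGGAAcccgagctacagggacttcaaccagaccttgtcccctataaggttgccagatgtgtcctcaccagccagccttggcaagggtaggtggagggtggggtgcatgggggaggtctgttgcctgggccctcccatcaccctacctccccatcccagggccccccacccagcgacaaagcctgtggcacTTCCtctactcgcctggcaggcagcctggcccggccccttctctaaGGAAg
The core was found 2 times before Tek, 4 times before Flt1 and 3 times before Eng. Of 32851 promoter windows of the same length, 93.4% held it at least once on either strand, so its presence does not set these genes apart. The Tek window also held ACAAT, a core bound by Sox factors, 2 times. The windows of Flt1, Eng, Tie1 and Kdr held none, and 27.7% of all windows held it on either strand. The octamer ATGCAAAT was in none of the 3 windows and in 1.60% of all windows. A match is a description of letters and not a binding site.

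The values were more finely graded in some conditions than in others. Low values of genes with a single transcript of at least 2.5 kb fell on discrete steps, and a 2 kb gene at 1 FPKM stood at 85.5 to 99.3 steps where cells were re-seeded after 0 or 24 h and at 28.5 to 36.7 steps in all other conditions. Steps serve as a rough guide to precision and are not counts. Of the 4 OSKM genes, Pou5f1 (Oct4) stood at 72.6 FPKM without and 203.5 FPKM with dox after 48 h. Sox2 was at 43.4 and 87.8, and Klf4 at 4.68 and 14.6, while Myc was lower with dox at 35.9 and 18.7. After 96 h Pou5f1 was at 2.63 and 9.95 FPKM, Sox2 at 16.34 and 19.65, Klf4 at 11.4 and 11.6 and Myc at 57.6 and 36.1. After 0 h Pou5f1 was at 359.6 and 425.4 FPKM, Sox2 at 224.4 and 121.9, Klf4 at 84.84 and 66.74 and Myc at 24.5 and 18.66. The size of the difference with dox thus varied between timepoints, and for Sox2 and Klf4 so did its direction. The table does not separate transgene from endogenous transcripts. Fibroblast genes such as Col1a1 were at 228.7 FPKM at 0 h of withdrawal and at 1.45 FPKM in 0 h –dox. The iPSCs were maintained on mouse embryonic fibroblast feeders. The methods place the cells on gelatin for withdrawal and describe re-seeding onto feeders for the test of colony formation, without a separate account of the cells re-seeded for RNA-seq.

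The 7 genes differed widely in level. Pecam1 was the highest of them in the undifferentiated cells and Eng the next, Tek and Flt1 were low, and Tie1, Cdh5 and Kdr stayed under 1 FPKM in nearly all conditions. Pecam1 reached 1 FPKM in 14 of the 15 conditions, Eng in 13, Tek in 11 and Flt1 in 9. Tie1 reached it only in 48 h +dox, Cdh5 only in 96 h –dox, and Kdr in none. FPKM is a value per transcript length, so these levels can be set side by side. Because these are bulk samples, fewer cells that express a gene and less RNA per cell cannot be told apart.

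**Figure D1:**
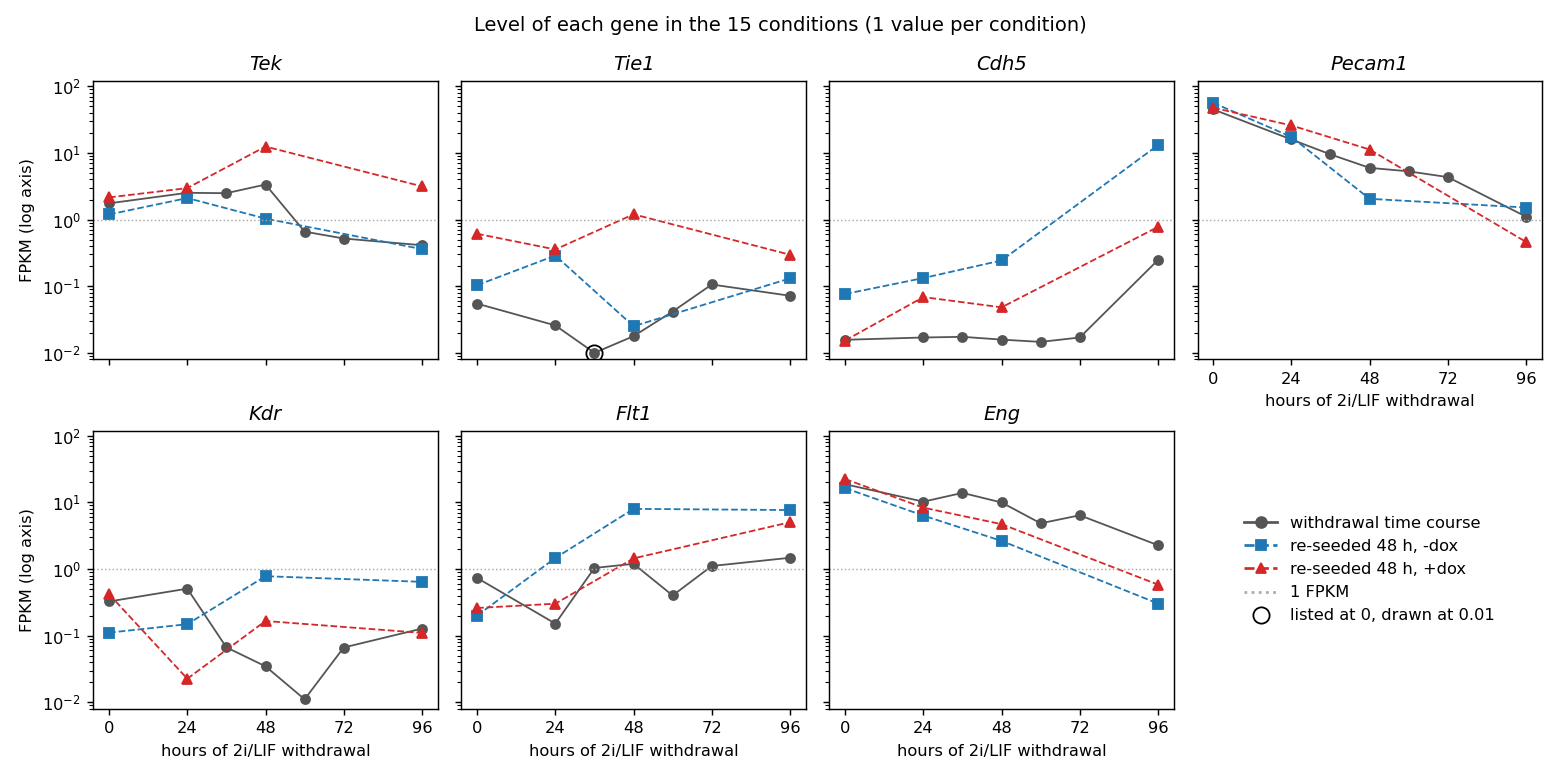
Level of each of the 7 genes in FPKM (log axis) against the hours of 2i/LIF withdrawal, for the time course (grey circles), and for cells then re-seeded for 48 h without dox (blue squares) or with dox (red triangles); each point is 1 condition in which 2 replicates are combined. The +dox point of Tek lies highest at 48 h (12.5 FPKM), the –dox point of Cdh5 lies highest at 96 h (13.1 FPKM), and Pecam1 and Eng end lower than they start in all 3 series.

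Tek was expressed at a low level in the pluripotent cells and had its highest value in cells given OSKM after 48 h. During withdrawal it stood at 1.75, 2.52, 2.49 and 3.36 FPKM at 0, 24, 36 and 48 h, and then at 0.660, 0.520 and 0.412 FPKM at 60, 72 and 96 h. The value at 48 h was the highest of the time course and the drop came between 48 and 60 h. Without dox, Tek was at 1.19, 2.11, 1.03 and 0.361 FPKM after 0, 24, 48 and 96 h of differentiation. With dox it was at 2.15, 2.97, 12.5 and 3.15 FPKM. The +dox value was above the –dox value at every timepoint, by 0.85 and 0.50 on the log2 scale after 0 and 24 h, and by 3.59 (12.1-fold) and 3.13 (8.74-fold) after 48 and 96 h. Only 23 of the 12618 genes with a ratio at 48 h had a higher one than Tek, which is a position and not a test, since the gene was picked for this rise.

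Tie1 was very low in all conditions and had its 4 highest values in the +dox cells, with 24 h –dox next. It stood between 0 and 0.106 FPKM in the 7 conditions of the time course, at most 7.0 steps. The –dox values were 0.104, 0.289, 0.0251 and 0.131 FPKM after 0, 24, 48 and 96 h, and the +dox values 0.612, 0.356, 1.20 and 0.297 FPKM. The 4 +dox values were all above the 4 –dox values and above the whole time course. The ratio at 48 h was 5.58 on the log2 scale, but the –dox value behind it stood on 1.6 steps, so its size is poorly fixed. Tek and Tie1 thus had their maximum in the same condition, and Pearson's r of their log2(FPKM + 1) values over the 15 conditions was 0.69. Tek was chosen for its rise in that condition, which r includes, so both are descriptions.

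Cdh5 was near 0 in the time course and appeared in the cells that returned to serum/LIF without OSKM after 96 h. From 0 to 72 h of withdrawal it lay between 0.0146 and 0.0174 FPKM, which is 0.9 to 1.1 steps and cannot be told from a single fragment, and at 96 h it was at 0.247 FPKM. Re-seeded cells had 0.0764, 0.133, 0.244 and 13.1 FPKM without dox after 0, 24, 48 and 96 h, and with dox they had 0.0153, 0.0687, 0.0482 and 0.776 FPKM. The –dox values became higher with the length of differentiation, and the largest step was between 48 and 96 h. The +dox value was below the –dox value at each of the 4 timepoints, by 2.32, 0.95, 2.34 and 4.08 on the log2 scale, and it was only at 96 h that either value reached 1 FPKM. The difference at 96 h was 16.9-fold and is the one the gene was chosen for.

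Pecam1 was lower with longer differentiation and differed in the direction of its dox ratio between 48 and 96 h. In the time course it was at 45.0, 15.9, 9.51, 5.98, 5.30, 4.34 and 1.11 FPKM from 0 to 96 h, lower at every later timepoint. Without dox it was at 56.6, 17.4, 2.05 and 1.52 FPKM after 0, 24, 48 and 96 h, and with dox at 47.7, 25.9, 11.3 and 0.462 FPKM. The log2 ratio of +dox to –dox was -0.25 and 0.57 after 0 and 24 h, 2.46 (5.50-fold) after 48 h and -1.71 (3.28-fold lower) after 96 h. At 96 h, 667 of the 12644 genes with a ratio had a lower one. The 96 h +dox value of Pecam1 was the lowest of its 15 values. The higher value at 48 h is one the genes were chosen for, and the 96 h comparison is the one in which Cdh5 was chosen, so both are descriptions.

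Kdr, the main VEGF receptor, stayed under 1 FPKM throughout. In the time course it was at 0.327 FPKM at 0 h and 0.508 at 24 h and between 0.0111 and 0.128 FPKM from 36 to 96 h. After re-seeding without dox it was at 0.111, 0.149, 0.782 and 0.643 FPKM, and with dox at 0.419, 0.0226, 0.166 and 0.110 FPKM. Its –dox values after 48 and 96 h were its highest of all, and its +dox values at 24, 48 and 96 h were lower than the –dox values by 2.72, 2.23 and 2.55 on the log2 scale, the +dox value at 0 h being higher by 1.91. None of these differences counted as changed, because neither value reached 1 FPKM.

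Flt1, the other VEGF receptor, had its highest values in the cells re-seeded without dox after 48 and 96 h and with dox after 96 h. In the time course it was at 0.735, 0.152, 1.04, 1.20, 0.401, 1.11 and 1.48 FPKM from 0 to 96 h, with no steady trend. Its –dox values were 0.201, 1.47, 8.01 and 7.68 FPKM after 0, 24, 48 and 96 h, and its +dox values were 0.260, 0.302, 1.45 and 5.05 FPKM. With dox Flt1 was lower by 2.28 on the log2 scale at 24 h (4.85-fold) and by 2.47 at 48 h (5.54-fold). At 0 h the 2 values were close and at 96 h they differed by -0.61, under the 2-fold threshold. The +dox cells thus reached, after 96 h, a level between those of the 24 h and 48 h –dox cells.

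Eng was lower with longer differentiation, as Pecam1 was, and differed by less than 2-fold with dox. It was at 18.8, 10.3, 13.9, 9.99, 4.86, 6.42 and 2.28 FPKM from 0 to 96 h of withdrawal. Re-seeded without dox, the cells had 16.4, 6.35, 2.65 and 0.304 FPKM, and with dox they had 22.4, 8.34, 4.72 and 0.585 FPKM. The +dox value was the higher at all 4 timepoints, by 0.45, 0.39, 0.83 and 0.94 on the log2 scale, none of which reached 2-fold. Over the 15 conditions Pearson's r of the log2(FPKM + 1) values was 0.88 between Eng and Pecam1, -0.82 between Eng and Flt1 and -0.75 between Pecam1 and Flt1. These correlations describe conditions ordered along the same differentiation, with 1 value each.

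The comparison of +dox with –dox asks what OSKM changes in cells after a given time of withdrawal, from 0 to 96 h. The 7 genes did not answer as a block. At 0 h, 3 of the 7 reached 1 FPKM in either value and none was 2-fold higher or lower, beside 3.62% of 12751 genes that were higher and 5.61% that were lower. At 24 h, of the 4 that reached 1 FPKM only Flt1 changed, and it was lower, beside 2.87% of 12708 genes higher and 3.40% lower. At 48 h, 5 genes reached 1 FPKM. Tek, Tie1 and Pecam1 were higher and Flt1 lower, beside 6.56% of 12665 genes higher and 6.46% lower. At 96 h, of the 4 genes that reached 1 FPKM, Tek was higher and Cdh5 and Pecam1 were lower, beside 6.67% of 12688 genes higher and 11.1% lower. Since the genes were picked for 3 of the differences at 48 and 96 h, nothing is read from these shares for those timepoints. Tek was the only one of the 7 counted as higher at both 48 and 96 h, and Tie1, which was 2.27-fold higher at 96 h, stayed under 1 FPKM there. Pecam1 was the only one counted as higher at one timepoint and lower at another, and its 96 h call is lost where both values must reach 1 FPKM or where 1 FPKM is added (log2 ratio -0.78).

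**Figure D2:**
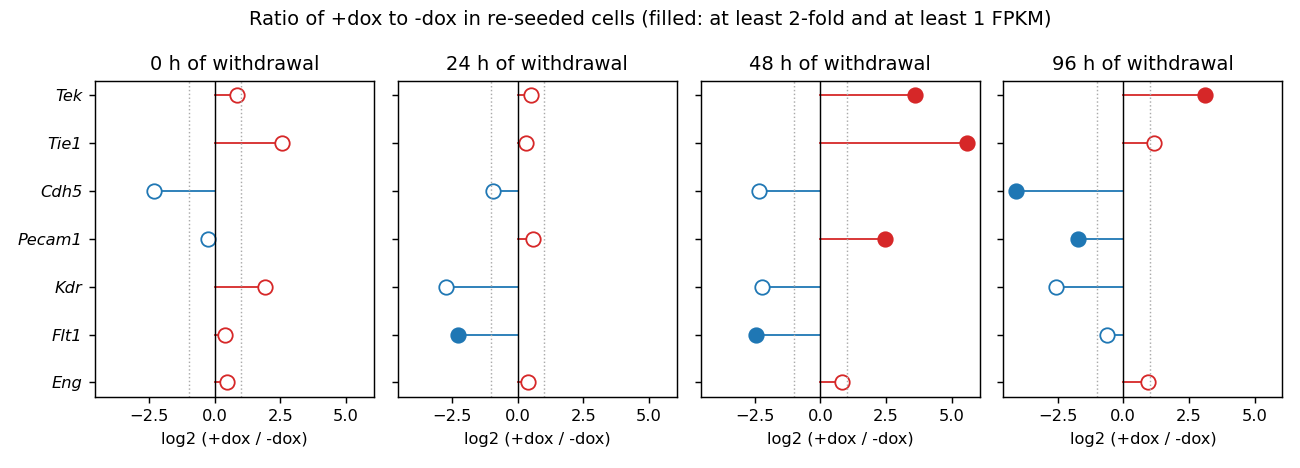
Log2 ratio of the +dox to the –dox FPKM of the 7 genes in cells re-seeded after 0, 24, 48 and 96 h of withdrawal, with filled points where the ratio reached 2-fold and the higher value 1 FPKM, and dotted lines at 2-fold. Tek and Tie1 lie to the right at all 4 timepoints and Cdh5 to the left, while Pecam1 lies at 2.46 at 48 h and at -1.71 at 96 h.

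The level at the end of withdrawal, before re-seeding, shows on which side of the starting value each arm ended. After 48 h of withdrawal Tek was at 3.36 FPKM; it was 3.25-fold lower than this in –dox and 3.72-fold higher in +dox. Pecam1 was at 5.98 FPKM and ended 2.92-fold lower in –dox and 1.88-fold higher in +dox. For both genes the –dox and +dox values thus lay on either side of the starting level, the rise of Pecam1 in +dox being under 2-fold. Both genes were chosen for being higher with dox at 48 h, so this is a description. Eng was at 9.99 FPKM and ended lower in both arms, by 3.77-fold in –dox and 2.12-fold in +dox. Flt1 was at 1.20 FPKM and ended 6.68-fold higher in –dox and 1.20-fold higher in +dox, so that its +dox value stayed near the start.

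After 96 h of withdrawal the same comparison separated Tek from Cdh5. Tek was at 0.412 FPKM and ended at 0.361 in –dox, close to the start, and at 3.15 in +dox, 7.64-fold higher. Cdh5 was at 0.247 FPKM and ended 53.0-fold higher in –dox and 3.14-fold higher in +dox. Cdh5 was thus higher than at the start in both arms, and far more so without dox. In +dox it stayed under 1 FPKM and was not counted as changed, and the 96 h difference between the arms is the one it was chosen for. Pecam1 was at 1.11 FPKM and ended 1.37-fold higher in –dox and 2.40-fold lower in +dox. Flt1 was at 1.48 FPKM and ended 5.20-fold higher in –dox and 3.42-fold higher in +dox. The 2 arms share this starting condition, and serum, LIF and 48 h of further culture separate both of them from it.

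**Figure D3:**
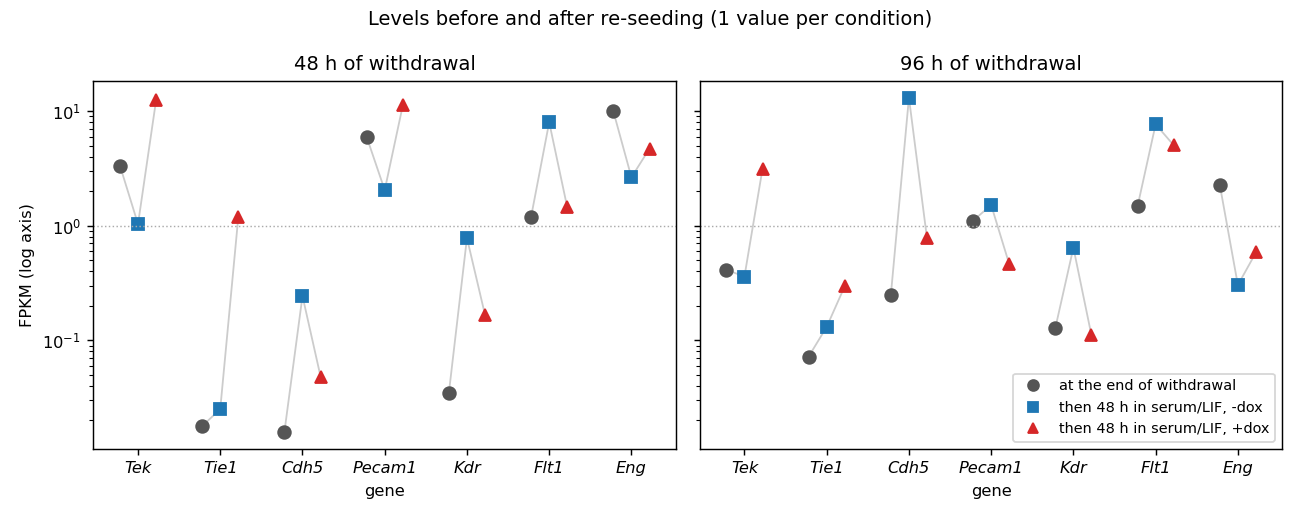
FPKM (log axis) of the 7 genes at 48 h and 96 h of withdrawal (grey circles) and after a further 48 h in serum/LIF without dox (blue squares) or with dox (red triangles), 1 value per condition. At 48 h the values of Tek and Pecam1 split to both sides of the starting value; at 96 h Cdh5 goes from 0.247 to 13.1 FPKM without dox and to 0.776 FPKM with dox.

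Over the withdrawal itself, from 0 to 96 h, 4 of the 7 genes reached 1 FPKM and all 4 changed. Pecam1 was 40.7-fold lower, Eng 8.23-fold lower and Tek 4.25-fold lower at 96 h, and Flt1 was 2.01-fold higher, just past the threshold, beside 16.4% of 13394 genes that were lower and 16.8% that were higher. Among –dox cells, between those re-seeded after 0 h and after 96 h, 5 of the 7 reached 1 FPKM and all 5 changed. Eng was 53.9-fold lower, Pecam1 37.3-fold lower and Tek 3.31-fold lower after 96 h, while Cdh5 was 172-fold and Flt1 38.3-fold higher, beside 21.7% of 13545 genes that were lower and 21.5% that were higher. The starting value of Cdh5 in this last comparison stood on 15.2 steps. The 7 genes, all in use as endothelial markers, thus went in both directions along the same series. The fibroblast genes were high at 0 h of withdrawal, where 20 of them summed to 1005 FPKM against 48.6 FPKM at 96 h, with 16 of the 18 that reached 1 FPKM at least 2-fold lower. In 0 h –dox, where the fibroblast genes summed to 22.2 FPKM, Pecam1 was at 56.6 FPKM against 45.0 FPKM at 0 h of withdrawal, and Eng at 16.4 FPKM against 18.8 FPKM. The part of the fibroblast genes' source in these values was not tested.

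The label endothelial was checked against 24 further genes of endothelium and 18 transcription factors used in it. Between 5 and 12 of the 24 genes reached 1 FPKM in a condition. Emcn (endomucin), Cd93 and Clec14a, which are surface proteins of endothelium, stayed at or below 0.0508, 0.0612 and 0.0546 FPKM in all 15 conditions, and the ETS factors Erg and Fli1 at or below 0.164 and 0.180 FPKM. In 96 h –dox, where Cdh5 was at 13.1 FPKM, Emcn was at 0.0496 FPKM, Cd93 at 0.0612 FPKM, Clec14a at 0.0130 FPKM and Erg at 0.0593 FPKM. In the same condition 6 of the 24 genes reached 1 FPKM, led by Egfl7 at 29.6 FPKM and Ecscr at 15.8 FPKM. Of the 18 factors 5 did, led by Gata2 at 49.7 FPKM, Nr2f2 at 27.0 FPKM and Sox17 at 6.84 FPKM. In 0 h –dox Egfl7 was higher, at 73.7 FPKM, and Ecscr was at 9.07 FPKM. From 0 h to 96 h –dox, 9 of the 13 other genes that reached 1 FPKM were lower and 1 was higher, with a median log2 ratio of -3.41. Of 6 factors, 4 were higher and 1 was lower, with a median of 4.38. Over all genes 21.5% were higher and 21.7% lower. The markers of endothelium were thus in part present and in part near 0, and the 7 genes are called here by their names only.

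With dox the other endothelial genes did not move as a block either. At 48 h, 10 of the 24 reached 1 FPKM, of which 2 were higher, 1 lower and 7 neither, beside 6.56% of all genes higher and 6.46% lower, with a median log2 ratio of 0.58 against -0.02 over all genes. The 2 higher genes were Vwf (von Willebrand factor), at 0.120 FPKM without and 1.64 FPKM with dox, and the adhesion protein Mcam, at 4.29 and 13.9 FPKM. The lower one was the apelin receptor Aplnr, at 1.72 FPKM without dox and listed at 0 with it. At 96 h, 7 reached 1 FPKM, of which 3 were higher and 2 lower, beside 6.67% and 11.1% of all genes, with a median of 0.19 against -0.01. Mcam was again higher, at 3.76 and 11.0 FPKM, as were Vwf, at 0.467 and 1.15 FPKM, and Ramp2, a partner of the adrenomedullin receptor, at 2.46 and 7.40 FPKM. Selp (P-selectin) was lower, at 3.06 and 0.0446 FPKM, and so was the junction protein Esam, at 2.80 and 0.273 FPKM. Selp, like Cdh5, had its highest value in 96 h –dox and stayed under 0.1 FPKM in the other 14 conditions.

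**Figure D4:**
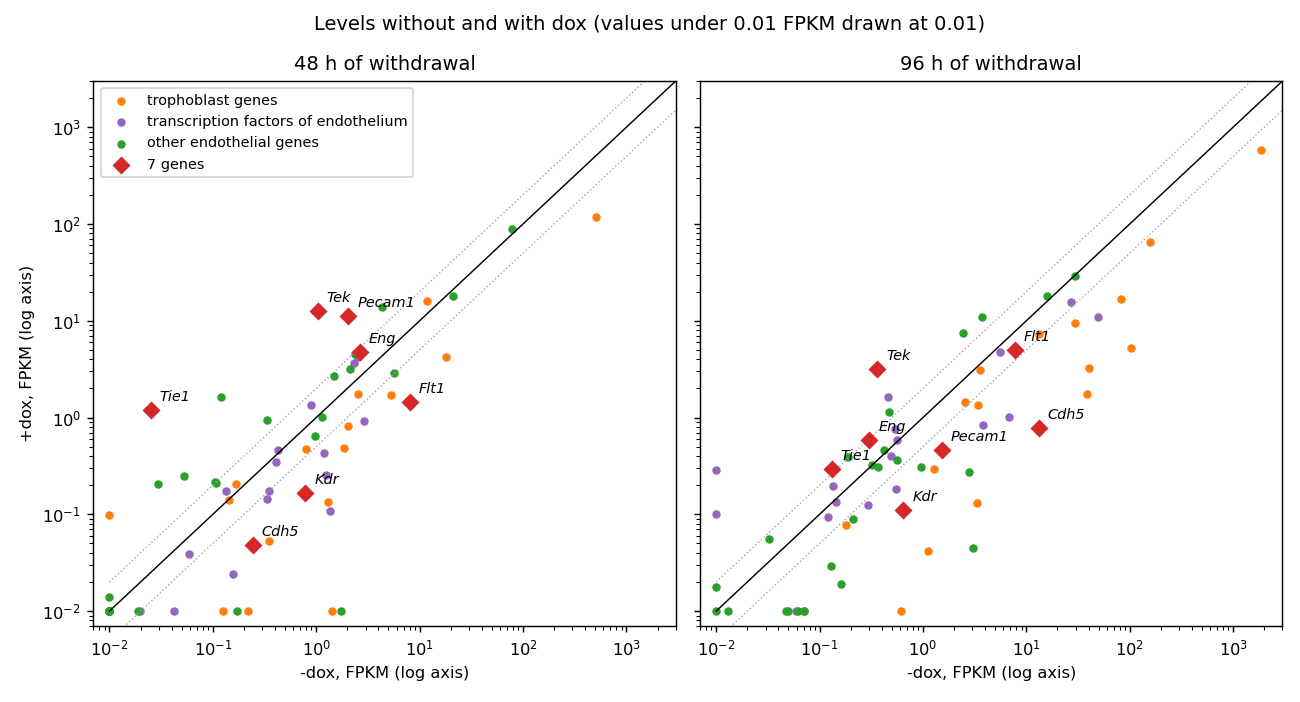
FPKM without dox against FPKM with dox (both log axes) at 48 h and 96 h for the 7 genes (labelled diamonds), the other endothelial genes, the transcription factors of endothelium and the trophoblast genes, with the line of equality and dotted lines at 2-fold; values under 0.01 FPKM are drawn at 0.01. Tek lies above the lines in both panels (12.5 and 3.15 FPKM with dox), Cdh5 lies below them at 96 h, and most trophoblast genes lie below the line of equality at 96 h.

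The transcription factors of endothelium were mostly lower with dox where they changed. At 48 h, 7 of the 18 reached 1 FPKM, 4 were lower and none higher, beside 6.46% and 6.56% of all genes, with a median log2 ratio of -1.46. These were Gata2 (2.89 FPKM without and 0.929 with dox), the orphan nuclear receptor Nr2f2 (1.35 and 0.108), Sox7 (1.24 and 0.256) and Sox17 (1.19 and 0.435). At 96 h, 6 reached 1 FPKM, 3 were lower and 1 higher, beside 11.1% and 6.67% of all genes, with a median of -1.47. Gata2 was at 49.7 FPKM without and 10.9 FPKM with dox, Sox17 at 6.84 and 1.01 FPKM, and the Notch target Hey2 at 3.77 and 0.840 FPKM. The homeobox gene Hhex was higher with dox, at 0.462 and 1.63 FPKM. At 0 h the only one that changed was Gata2, at 1.22 FPKM without and 16.3 FPKM with dox. Etv2, the early master regulator of endothelium and blood, was highest in 24 h –dox, at 6.71 FPKM, where Cdh5 was at 0.133 FPKM and Kdr at 0.149 FPKM, and it was at 1.10 FPKM in 24 h +dox.

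Among the ligands of these receptors, 11 of the 14 on the list were matched by symbol. Vegfa, the main ligand of Kdr and Flt1, was present in all conditions, between 5.78 and 92.7 FPKM, and after 48 h it was at 92.7 FPKM without and 50.8 FPKM with dox. Pgf (placental growth factor), a ligand of Flt1 and not of Kdr, was lower with dox at 48 h, at 3.06 and 0.959 FPKM, and at 96 h, at 3.83 and 0.593 FPKM. Tgfb3, a ligand of the receptor complex of Eng, was lower at 48 h, at 1.59 and 0.537 FPKM. Figf (VEGF-D) was the only ligand that was higher at 48 h, at 0.422 and 1.30 FPKM. Angpt1, the activating ligand of Tek, was at 1.40 and 0.122 FPKM after 96 h, without and with dox, and at or below 0.328 FPKM in the other 13 conditions. Tek was thus highest in 48 h +dox, a condition in which Angpt1 was listed at 0 and Angpt2 was at 0.162 FPKM. Vegfc was also lower at 96 h, at 4.68 and 2.29 FPKM. In all, 1 ligand was higher and 2 were lower of 7 at 48 h, beside 6.56% and 6.46% of all genes, and 3 were lower and none higher of 7 at 96 h, beside 11.1% and 6.67%.

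Of 20 co-receptors and signalling partners, between 15 and 18 reached 1 FPKM in a condition. At 48 h, 2 of 18 were higher and 1 was lower, beside 6.56% and 6.46% of all genes, with a median log2 ratio of -0.19. At 96 h, 3 of 19 were higher and 2 lower, beside 6.67% and 11.1% of all genes, with a median of -0.21. Nrp2 (neuropilin-2), a co-receptor for VEGFs and semaphorins, was at 3.39 FPKM without and 18.5 FPKM with dox after 48 h, and at 4.08 and 36.6 FPKM after 96 h. Its relative Nrp1 went the other way at 96 h, at 1.49 FPKM without and 0.112 FPKM with dox. Acvrl1 (ALK1), the type I receptor that works with Eng, was higher with dox at both, at 0.545 and 1.33 FPKM at 48 h and at 1.58 and 3.93 FPKM at 96 h. Dok2, an adaptor protein that binds activated Tek, was at 0.446 FPKM without and 3.04 FPKM with dox after 96 h, but at 42.9 and 22.4 FPKM after 48 h, where Tek was highest with dox, and at 29.4 and 13.4 FPKM after 24 h. Id3, a target of BMP signalling, was lower with dox at 48 h, at 30.7 and 6.68 FPKM, and at 96 h, at 320.9 and 99.5 FPKM. The catenins that bind Cdh5 were expressed throughout, Ctnnb1 (beta-catenin) between 139.5 and 225.7 FPKM.

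Markers of other cell types moved in the same conditions. At 48 h, 9 of the 12 naive pluripotency genes that reached 1 FPKM were higher with dox and none lower, beside 6.56% and 6.46% of all genes. Their median log2 ratio was 1.72, and the 13 genes summed to 165 FPKM in –dox and 397 FPKM in +dox. At 96 h, where Pecam1 was lower with dox, 3 of 10 naive genes were higher and 4 lower, beside 6.67% and 11.1% of all genes. The sums were 79.2 and 74.5 FPKM. Across the 15 conditions, among 14853 genes, the pattern of Pecam1 was most like those of Cbfa2t2, a transcriptional corepressor (Pearson's r of log2(FPKM + 1) 0.968), Esrrb, a naive pluripotency factor (0.963), and the histone acetyltransferase Kat6b (0.960). Eng was most like Fam178b (0.976), the phosphatase Inpp5d (0.968) and Hsf2bp (0.967). The part of the naive pluripotent cells in the values of Pecam1 and Eng was not tested.

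At 96 h, 11 of the 14 trophoblast genes that reached 1 FPKM were lower with dox and none was higher, with a median log2 ratio of -1.90. Over all genes 11.1% were lower and 6.67% higher at 96 h, and 6.46% were lower and 6.56% higher at 48 h. These shares stand beside every count of this paragraph. The trophoblast list of 16 genes was added after the values had been seen. They summed to 2335 FPKM in –dox, of which the imprinted gene Peg10 made up 1855 FPKM, and to 694 FPKM in +dox. Plac1 was at 103.2 and 5.23 FPKM, Ascl2 at 40.0 and 3.22 FPKM and Hand1 at 38.2 and 1.76 FPKM. At 48 h, 7 of 9 were lower and none higher. Fibroblast genes were also lower with dox at 96 h, 12 of 17, with 2 higher, and summed to 179 FPKM in –dox and 38.4 FPKM in +dox. Of the blood genes, 5 of the 7 that reached 1 FPKM were lower and 1 was higher, and the list summed to 39.2 FPKM in –dox and 51.0 FPKM in +dox. The higher one was the macrophage gene Cd68, at 16.2 and 47.3 FPKM. The lower ones included the embryonic globins Hbb-bh1, at 5.30 FPKM and listed at 0, and Hba-x, at 5.02 and 0.183 FPKM, and Ptprc (CD45) was listed at 0 in 96 h –dox. Of genes of the other lists at 96 h, 1 of 3 mesoderm genes was lower (Hand1, which is on both lists), 2 of 7 endoderm genes were lower and 1 higher, and none of 5 mural cell genes changed. At 48 h the counts were 4 lower of 5 mesoderm genes, 2 lower and 1 higher of 6 endoderm genes, 1 lower of 5 mural cell genes, 1 higher of 3 blood genes, and 7 lower and 2 higher of 13 fibroblast genes. The part of these cell types in the 96 h value of Cdh5 and in the 48 h values of Tek, Pecam1 and Flt1 was not tested.

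For the remaining genes, leaving out the condition with the gene's highest value changed the likenesses to differing degrees. Cdh5 was most like Bmp3 (Pearson's r 0.998), Il2rb (0.993) and Dhrs9 (0.993), and all 3 were highest in 96 h –dox; without that condition the values were 0.963, 0.862 and 0.846 over 14 conditions. For Tek, Rab17 (0.826) and Eef1b2 (0.814) came first, and both were highest in 48 h +dox. Without it the values were 0.765 and 0.777. Tie1 was most like Aldh3a1 (0.895), Csnk1a1 (0.884) and Spg11 (0.858), likewise highest in 48 h +dox, and without it the values were 0.823, 0.78 and 0.873. Flt1 was most like Rcn2 (0.934), Nox4 (0.933) and Map2k4 (0.933), and Kdr, whose values were all low, was most like Gpalpp1 (0.809), Spcs1 (0.803) and Hspa1a (0.801). Both Flt1 and Kdr were highest in 48 h –dox. Without it the values were 0.909, 0.91 and 0.931 for Flt1 and 0.82, 0.775 and 0.795 for Kdr. None of the 7 was among the 3 closest genes of another.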

How the data were processed

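RNA-seq of polyadenylated RNA was made from 30 samples in 15 conditions. Per the paper's methods, the authors used TopHat 2.0.14 for alignment against mm10, and quantified Gencode transcripts of at least 200 bp and 6 biotypes with Cuffquant and Cuffdiff of Cufflinks 2.2.1. The deposited table holds 1 FPKM value per gene and condition, combined by Cuffdiff over 2 replicates; the library normalization is not given in the sources used here. The table also holds the authors' calls of dynamic and dox-responsive genes, which were not used. It has no counts or replicate values, so read depth is unknown and no test or error was computed. Values were used as deposited: conditions summed to 603278 to 832607 FPKM, and median-ratio factors over 12394 genes ran from 0.987 to 1.04. A gene was called at a plain ratio of 2-fold or more with the higher value at 1 FPKM or more. Genes at 0 in only 1 of the values were called where the other reached 1 FPKM. They have no finite ratio, so they are left out of the medians and of the counts of genes with a ratio. Steps are multiples of the lowest cluster of FPKM times length among 1380 single-transcript genes, with each gene's longest coding transcript as its length.

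Similar genes were ranked by Pearson's r of log2(FPKM + 1). Named genes are the 7 genes, list genes (those with the largest changes first), the 3 genes most similar to each (1 is not reported here) and the OSKM genes. The members and lists were chosen with earlier results of these data known. Lists of mural, mesoderm and endoderm genes were also counted. Alternatives covered the minimum, the fold, an added value, the scaling and Spearman's rho. The calling rule, the ranking of similar genes and the scaling factors were checked on data with planted changes. These changes lay well past the thresholds, so the check does not bear on values under 1 FPKM. The FPKM steps were not checked in this way. Versions were matplotlib 3.10.9, scipy 1.17.1, pandas 2.3.3, numpy 2.4.6 and Python 3.11.15.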

Additional observations from a re-analysis of the deposited data

Results flagged for a closer look

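Pecam1 had opposite differences with dox at 2 timepoints. Its log2 ratio of +dox to –dox was 2.46 at 48 h (2.05 FPKM without and 11.3 FPKM with dox) and -1.71 at 96 h (1.52 FPKM without and 0.462 FPKM with dox). Each value combines 2 replicates, and the difference between the timepoints was not tested. The 96 h call is lost where both values must reach 1 FPKM, and with 1 FPKM added the 96 h log2 ratio was -0.78. The rise at 48 h is among the values for which the gene was chosen. None of the other 6 genes was counted as changed in both directions with dox.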

How the results depend on the processing

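No paired analysis was possible because the table holds no replicate values, and for the same reason no replicate could be left out. Without a minimum, the number of the 7 genes counted as changed with dox went from 0 to 3 at 0 h (Tie1 and Kdr higher, Cdh5 lower), from 1 to 2 at 24 h (Kdr added) and from 3 to 5 at 96 h (Tie1 and Kdr added). With at least 1 FPKM in both values it went from 1 to 0 at 24 h and from 3 to 0 at 96 h, since Tek, Cdh5 and Pecam1 each had 1 value under 1 FPKM, from 4 to 2 over withdrawal (Pecam1 and Eng) and from 5 to 1 between 96 h and 0 h –dox (Pecam1). With a 1.5-fold threshold it went from 0 to 1 at 0 h (Tek). With 1 FPKM added it went from 1 to 0 at 24 h and from 4 to 2 over withdrawal. At 48 h the count of 4 ran from 3 to 6 over the alternatives, within 1.5 times. No ratio of the 42 changed sign with 0.1 or 1 FPKM added or with median-ratio scaling. With 1 FPKM added 5 called ratios dropped under 2-fold, and with 0.1 FPKM added 1 did (Flt1 over withdrawal, 0.92). Pecam1 at 96 h was at -0.78 with 1 FPKM added. Scaling changed no count, and the median of all genes lay between -0.032 and 0.017 after it. Beyond what each setting leaves out by its construction, the cause was not tested. Counts of changed list genes ran from 1 to 10 at 48 h and 2 to 16 at 96 h for the other endothelial genes (3 and 5 as reported), from 0 to 9 and 2 to 10 for the transcription factors (4 and 4), from 7 to 10 and 4 to 8 for naive genes (9 and 7) and from 3 to 11 and 8 to 13 for trophoblast genes (7 and 11); these were added after the data were seen. Of the 21 most similar genes, 1 was also chosen by Spearman's rho. Values under about 0.1 FPKM stand on few steps.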
